A study of Danio rerio with 20 samples.

Results

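Kit mutant and wild-type zebrafish hearts were compared 7 days after resection of the ventricular apex (7 dpi) by mRNA sequencing of isolated cardiomyocytes. The comparison set 2 mutant libraries against 2 wild-type libraries. It covered the 10360 genes that reached 1 CPM (counts per 1000000 assigned reads) in at least 2 of these 4 libraries, out of 14781 genes in the deposited matrix. Among the genes higher in mutants were many of mitochondrial fuel use, of the contractile and calcium machinery and of the circadian clock. Among those lower in mutants were many of the fibroblast matrix and of the immediate early response. Some of macrophages, of inflammatory signalling and of protein folding were lower too.

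The study sequenced 20 such libraries of wild-type and kit mutant fish, from untouched hearts and hearts at 2, 5, 7 and 14 dpi, with 2 libraries in each of 10 groups. The series asks about a defect in the proliferation of kit mutant cardiomyocytes. Every library was made from 8 pooled ventricles of fish aged 4 to 6 months, so single animals cannot be told apart. At 7 dpi both groups had lost about 20% of the apex and differed in genotype only as far as the labels say. One group was wild type, and the other was mutant in both kit receptor genes, kita(w34b2) and kitb(sa15356). How the wild-type fish are related to the mutants is not stated in the labels.

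Kit is a receptor tyrosine kinase that binds kit ligand, also called stem cell factor, and is known for its part in pigment cells, blood progenitors and germ cells. Zebrafish kept duplicated copies of the receptor gene, kita and kitb, and of the ligand gene, kitlga and kitlgb. The adult zebrafish ventricle regrows after resection: cardiomyocytes near the wound lower their contractile and oxidative programmes and divide, while epicardium, fibroblasts and macrophages build and clear a passing matrix.

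Levels below are scaled CPM, that is CPM divided by a library factor that evens out library composition. Values of single libraries are given in the order replicate 1, replicate 2, and "a and b against c and d" gives the wild-type libraries before the mutant ones. Differences are log2(scaled CPM + 1), mutant minus wild type, ± the standard error (SE) from a limma-trend fit over all 20 libraries, and adjusted p-values are Benjamini-Hochberg values over the 10914 genes tested, with a threshold of 0.05. "Higher" and "lower" are used of genes past that threshold. Summed levels of a list take in all its genes in the deposited matrix, also those outside the comparison.

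The wild-type libraries of 7 dpi held 23161870 and 14748553 assigned reads and the mutant libraries 19284678 and 17480934, within the 14604835 to 31689067 of all 20. The mutant libraries of 7 dpi differed little beyond the sampling of reads. A chi-square of their counts averaged 1.95 over genes, where sampling alone gives about 1, against 26.6 for the wild-type pair. The labels do not say whether the mutant libraries came from separate preparations, and p-values may be too small if they did not. Counts are therefore also given with the 3 nearly identical mutant pairs of the study averaged into 1 column each, and "in both fits" means past the threshold with and without that averaging. All 4 libraries of 7 dpi carry the same lane label, but a wild-type and a mutant library share a sample-sheet number. Separate sequencing runs are inferred from this and are not named in the labels used here. Genotype and run therefore cannot be told apart. The mutant libraries of 2 dpi carry lane label 7 and all others 8. The samples called 14 dpi here have that day in their titles and time labels, but their source label reads 4 dpi, and values given for 14 dpi rest on the former.

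The preparations were rich in cardiomyocyte RNA. myl7, the cardiac regulatory myosin light chain, ranked 6 among all genes, with 13693 and 14300 scaled CPM in wild type and 18409 and 19279 in mutants (log2 difference 0.43 ± 0.20, adjusted p = 0.13). The ventricular myosin heavy chain gene vmhc, cmlc1 and the troponin T gene tnnt2a did not pass the threshold either, with adjusted p of 0.089, 0.24 and 0.21. RNA of other cells was present. The fibroblast matrix gene postnb stood at 1838 and 1886 scaled CPM in wild type and 959.8 and 951 in mutants, the erythrocyte globin gene hbaa1 at 3774 and 4999 against 5301 and 5400, and the endothelial receptor gene kdrl at 365 and 453 against 450.4 and 432. The liver gene fgb had 0 in all 4 libraries, and the pigment cell gene dct was at 0 in 3 of them and at 0.0641 in the other. The skin marker krt4 was present, at 746 and 499 against 494 and 469 (adjusted p = 0.11). So was the pancreas marker ctrb1, at 11.8 and 54.1 against 62.4 and 63.1 (adjusted p = 0.17).

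The RNA of the kit genes was too scarce to check the genotype. kita had 16 and 6 reads in wild type and 11 and 9 in mutants and was no member of the comparison (log2 difference 0.03 ± 0.21, adjusted p = 0.93). kitb had 5 and 0 reads in wild type and 1 and 3 in mutants, and kitlgb had 1 read in 1 mutant library and 0 in the other 3 libraries. A count of 0 allows up to 3 reads, which is 0.121 to 0.192 scaled CPM in these libraries and covers counting error only. The ligand gene kitlga stood at 11.4 and 13.1 scaled CPM in wild type and 6.95 and 8.32 in mutants. Both mutant libraries lay below both wild-type libraries (log2 difference -0.62 ± 0.17, adjusted p = 0.013). That call was lost with the pairs averaged (adjusted p = 0.12), without wild-type replicate 2 (adjusted p = 0.091) and without mutant replicate 1 (adjusted p = 0.12).

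In all, 1421 of the 10360 genes were higher in mutants (13.7%) and 1501 lower (14.5%), 28.2% together, against 27.2% of all 10914 genes tested. With the pairs averaged 390 were higher (3.76%) and 453 lower (4.37%), and each of these 843 also passed with both libraries. A log2 difference of at least 1 in size was found for 206 of the higher and 251 of the lower genes. Of those in both fits, 168 and 194 reached it. For low genes this asks for more than a 2-fold ratio of scaled CPM. The median absolute log2 difference of the called genes was 0.62, and the median log2 difference of all 10360 genes was -0.01. With CPM as deposited, without library factors, 987 were higher and 1795 lower, which moved the share of higher genes among those called from 48.6% to 35.5%. With wild-type replicate 1, wild-type replicate 2, mutant replicate 1 or mutant replicate 2 left out, in that order, 820, 1043, 728 and 721 genes were higher and 939, 1088, 811 and 823 lower. Of the 843 genes in both fits, 829 passed in each of these 4 settings too. The 4 libraries did not overlap between the genotypes for 7243 genes (69.9%). A lack of overlap, given below for single genes, was thus common, and most of those genes were chosen for passing in both fits.

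**Figure D1:**
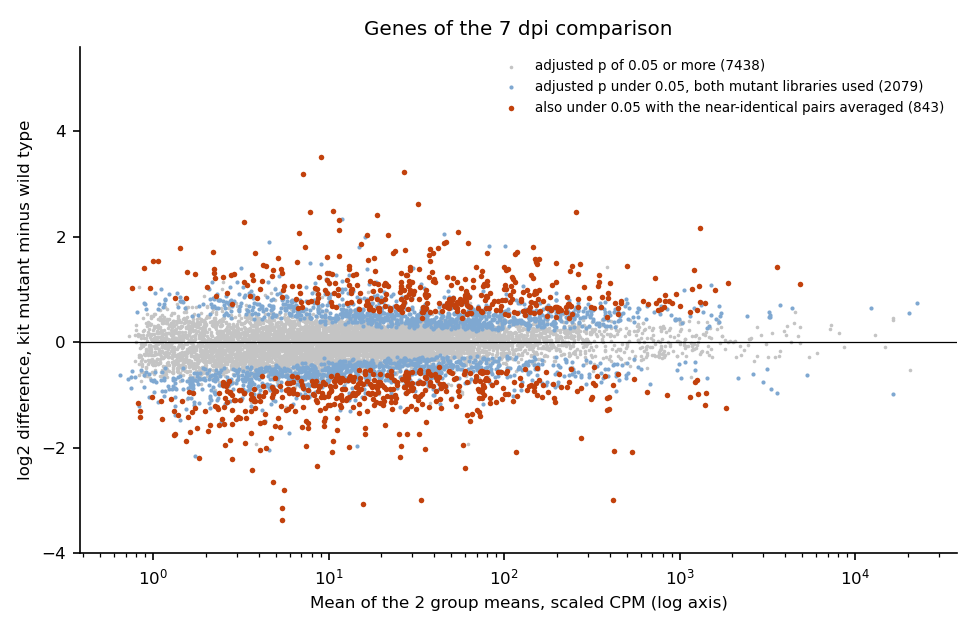
Log2 difference at 7 dpi (kit mutant minus wild type, vertical axis) against the mean of both group means in scaled CPM (horizontal log axis) for the 10360 genes. Grey points did not pass the threshold, blue points passed with both mutant libraries, and the 843 red points also passed with the nearly identical pairs averaged, in both directions.

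The largest difference upward was in coch, which encodes the secreted matrix protein cochlin. It stood at 0.808 and 0.449 scaled CPM in wild type and 18.3 and 16.7 in mutants (log2 difference 3.51 ± 0.48, adjusted p = 9.8e-05). slc25a4, the ADP/ATP carrier of the inner mitochondrial membrane, stood at 1.53 and 9.75 against 46.3 and 49.5 (log2 difference 3.23 ± 0.55, adjusted p = 0.00052). The mutant libraries lay close together for both genes, while the wild-type libraries of slc25a4 lay far apart. mapk4, an atypical MAP kinase, was at 6.14 and 10.97 in wild type and 56.6 and 55.1 in mutants (6.53-fold), and hspb3, a small heat shock protein of muscle, at 2.22 and 4.23 against 19.6 and 19.6 (6.08-fold). abcc8, the sulfonylurea receptor subunit of ATP-sensitive potassium channels, was at 6.90 and 8.98 against 35.16 and 35.8 (4.47-fold). The other genes among the 15 largest rises were kcnh6a, hspb6, zbtb16a, cpt1b and mlycd, described below, and erich3, ggt1a (a gamma-glutamyltransferase), rn7sk (the 7SK small nuclear RNA), slc26a4 (an anion exchanger) and hrh3 (a histamine receptor). Their log2 differences ran from 1.87 for hrh3 to 3.2 for erich3. slc26a4 was at or below 0.577 scaled CPM in wild type. rn7sk is not an mRNA, and how its RNA came into these poly(A)-selected libraries was not tested.

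The largest difference downward was in ahsa1a, which encodes an activator of the Hsp90 ATPase. It stood at 16.2 and 5.07 scaled CPM in wild type and at 0.259 and 0.0574 in mutants, where the second value is a single read (log2 difference -3.15 ± 0.38, adjusted p = 3.5e-05). gnb5b, a G protein beta subunit, was at 35.98 and 21.5 against 1.92 and 3.10 (log2 difference -3.06 ± 0.35). f13a1a.1, a coagulation factor XIII subunit, was at 1156 and 361 in wild type and 80.6 and 80.4 in mutants (log2 difference -2.99 ± 0.44, adjusted p = 0.00017). Its wild-type libraries differed by more than 3-fold, and the mutant libraries lay below both. has1, a hyaluronan synthase gene, stood at 41.99 and 41.8 against 11.15 and 9.01 (4.15-fold lower in mutants, adjusted p = 1.2e-05). The iron carrier gene tfa, transferrin, stood at 881 and 499 against 158 and 159.7 (4.35-fold lower), the matrix proteoglycan gene ogn, osteoglycin, at 15.02 and 19.9 against 3.27 and 3.44 (5.21-fold lower). The groups did not overlap for any of these genes, which the choice of the 15 required. The Notch target genes her4.2 and her4.3 were lower too (log2 difference -2.02 ± 0.38 and -2.17 ± 0.35), but they are near-identical copies whose reads cannot be assigned with certainty. The rest of the 15 were znf326, adh8a, lin7b, mdkb, wdr47b, grhpra (a glyoxylate reductase) and wfdc1, with log2 differences from -2.35 to -1.82.

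**Figure D2:**
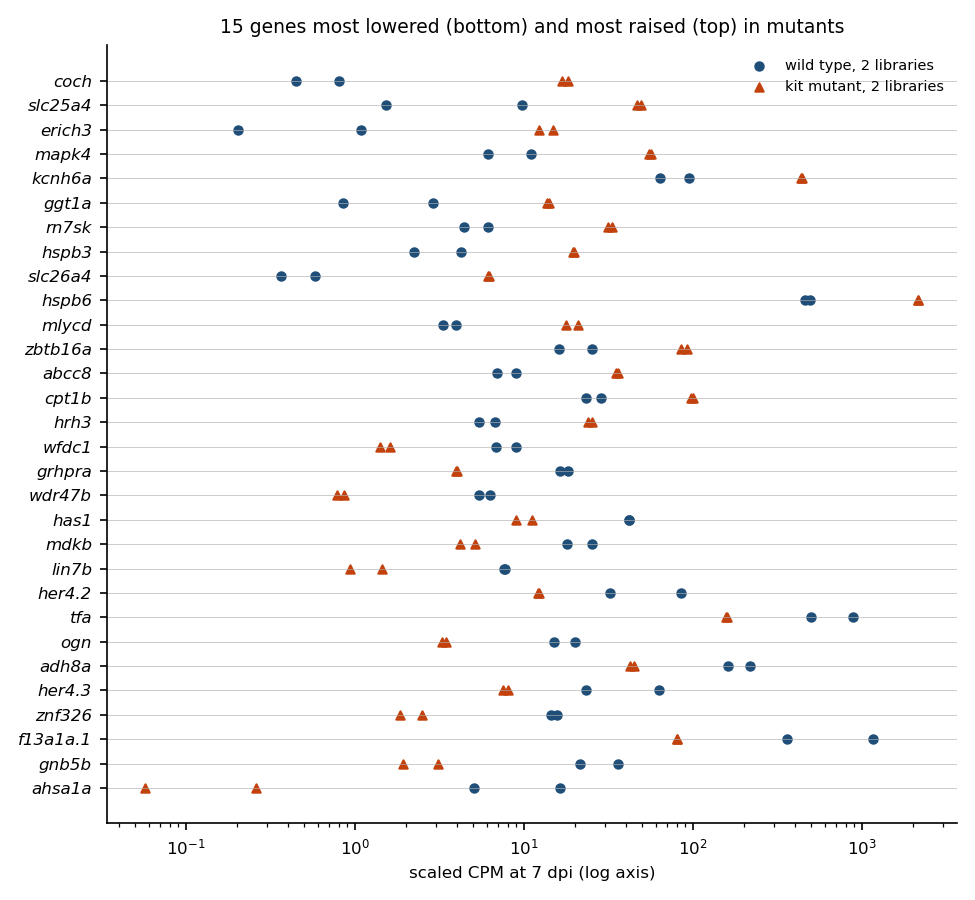
Scaled CPM (log axis) in the 2 wild-type libraries (circles) and the 2 mutant libraries (triangles) of 7 dpi for the 15 genes with the largest differences in each direction. The genes were chosen to have no overlap of libraries between the genotypes. The mutant symbols nearly coincide for mapk4, at 56.6 and 55.1, and lie apart for ahsa1a, at 0.259 and 0.0574.

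Most genes listed for fatty acid oxidation were higher in mutants with both libraries, and fewer in both fits. Of 35 genes of fatty acid oxidation 22 were higher and 1 lower, with a median log2 difference of 0.44 against -0.01 for all genes and 13.7% of them higher. cpt1b, the muscle carnitine palmitoyltransferase at the gate of mitochondrial fatty acid entry, stood at 23.3 and 28.3 scaled CPM in wild type and 96.8 and 99.4 in mutants, 3.80-fold higher (log2 difference 1.89 ± 0.19, adjusted p = 1.1e-05). mlycd, malonyl-CoA decarboxylase, which removes the inhibitor of that gate, stood at 3.96 and 3.33 against 17.7 and 20.9 (5.29-fold, adjusted p = 8.5e-05). It is not among the 35 genes and was named as one of the 15 largest rises. pdk4, the kinase that shuts off pyruvate dehydrogenase, stood at 68.6 and 87.1 against 226 and 225 (2.89-fold, adjusted p = 4.9e-06). For each of these genes the mutant libraries were more than 2 times the higher wild-type library. cpt2, the inner membrane partner of cpt1b, and acads, a short-chain acyl-CoA dehydrogenase, were higher by 0.87 and 0.83 on the log2 scale. The other genes of the carnitine route on the list, cpt1aa, slc25a20, crata and cratb, did not pass. The uncoupling protein gene ucp3 was the 1 lower member (18.3 and 19.9 against 9.18 and 9.24 scaled CPM, log2 difference -0.98 ± 0.11). In both fits 12 were higher and 1 lower. The receptor genes pparaa and pparab, which drive transcription of this pathway, are members of the list, named after their values were seen. They stood at 10.6 and 13.02 against 23.3 and 24.96 and at 5.49 and 8.08 against 20.6 and 17.96. 13, 19, 14 and 13 were higher without wild-type replicates 1 and 2 and mutant replicates 1 and 2, in that order.

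Many respiratory chain genes were higher with both mutant libraries, and few of them in both fits. Of 81 oxidative phosphorylation genes 47 were higher and 2 lower, with a median log2 difference of 0.44, but 4 were higher and 1 lower in both fits, against 3.76% of all genes higher with the pairs averaged. cox8b, a cytochrome c oxidase subunit, stood at 315 and 363 scaled CPM in wild type and 572 and 599 in mutants (log2 difference 0.79 ± 0.14, adjusted p = 0.00091). cycsb, a cytochrome c gene, stood at 674 and 611 against 1105 and 1098, and atp5d, a subunit of ATP synthase, at 310.3 and 325 against 529.9 and 541. Complex III was represented by its core protein gene uqcrc1, at 341 and 356 against 554 and 539. Mutant levels were 1.57- to 1.73-fold those of wild type for these 4 genes, with no overlap of libraries, as for 69.9% of all genes. cox4i2, the oxidase subunit isoform that in mammals is induced by low oxygen, was lower (27.3 and 28.2 against 15.6 and 13.7, log2 difference -0.88 ± 0.13). The summed level of the list was 23360 and 25507 scaled CPM in wild type and 34108 and 34712 in mutants. 17, 38, 25 and 18 members were higher without wild-type replicates 1 and 2 and mutant replicates 1 and 2, in that order.

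Of 20 genes listed for the TCA cycle 12 were higher and 1 lower (median 0.45), and 4 and 1 in both fits. pdha1a, a subunit of pyruvate dehydrogenase, stood at 573 and 581 against 1068 and 1071, and cs, citrate synthase, at 499.6 and 615 against 961 and 972. The lower member was dld, with 7.23 and 8.66 against 2.7 and 1.95 (log2 difference -1.43 ± 0.19, adjusted p = 6.8e-05). In zebrafish this symbol is that of the Notch ligand deltaD, so the list held no lower gene of the cycle itself. With wild-type replicate 1, wild-type replicate 2, mutant replicate 1 or mutant replicate 2 left out, in that order, 6, 9, 7 and 6 were higher. Glycolysis genes stayed nearer the background, 5 of 31 higher and 1 lower, and 1 each way in both fits. The paired pyruvate kinase genes differed in sign, pkma at 1118 and 957 against 1758 and 1717 and pkmb at 113 and 112 against 64.98 and 68.3. Of 39 mitochondrial carrier genes 10 were higher (25.6%) and 4 lower (10.3%), against 13.7% and 14.5% of all genes. In both fits 4 were higher and 2 lower. slc25a29, a carrier of basic amino acids, was 3.01-fold higher, and slc25a47b was lower (log2 difference -1.49 ± 0.23).

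The contractile and calcium machinery was higher in part. Of 42 sarcomere genes 17 were higher and 2 lower (median 0.40), and 5 of the higher ones passed in both fits. mylk3, the cardiac myosin light chain kinase, stood at 178 and 229 scaled CPM in wild type and 481 and 495 in mutants (log2 difference 1.27 ± 0.16, adjusted p = 5.7e-05). myoz2b, a Z-disc protein gene, stood at 237 and 304 against 503 and 524, and hspb7, a chaperone of muscle filaments, at 829 and 837 against 1734 and 1744. The libraries of the genotypes were apart for all 3. The summed sarcomere level was 84623 and 89305 scaled CPM in wild type and 117650 and 118240 in mutants. 12, 11, 9 and 10 members were higher without wild-type replicates 1 and 2 and mutant replicates 1 and 2, in that order.

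Of 19 genes of calcium handling and conduction 8 were higher and 2 lower (median 0.45), and 5 of the higher ones passed in both fits. kcnh6a, the ERG potassium channel that carries the repolarising current of the zebrafish heart, had the largest difference of the list, 63.8 and 94.9 scaled CPM against 434 and 439.7 in mutants (5.50-fold, log2 difference 2.47 ± 0.24, adjusted p = 8.8e-06). casq2, the calcium store protein of the sarcoplasmic reticulum, stood at 378 and 495 against 1018 and 1010 (2.32-fold, adjusted p = 8.5e-05). atp2a2a, the calcium pump SERCA2, stood at 2873 and 3249.7 against 6622 and 6548 (2.15-fold, adjusted p = 0.0001). Each mutant library was above both wild-type libraries for these channel, store and pump genes. cx43, a gap junction gene, was 1.76-fold higher. Called lower with both libraries but not with the pairs averaged were cx36.7, a cardiac connexin, and the potassium channel gene kcnj2a (log2 difference -1.04 ± 0.24 and -0.67 ± 0.18), both named after their values were seen. Of 20 natriuretic peptide and cardiac transcription factor genes 5 were higher and 2 lower, and 2 of the higher ones passed in both fits. mef2ca, a MEF2 factor of the sarcomere programme, stood at 70 and 91.5 against 225 and 226 (log2 difference 1.48 ± 0.16, adjusted p = 2e-05), and mef2d at 66.1 and 81.3 against 128 and 129. With wild-type replicate 1, wild-type replicate 2, mutant replicate 1 or mutant replicate 2 left out, in that order, 6, 6, 6 and 6 calcium and conduction genes were higher.

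**Figure D3:**
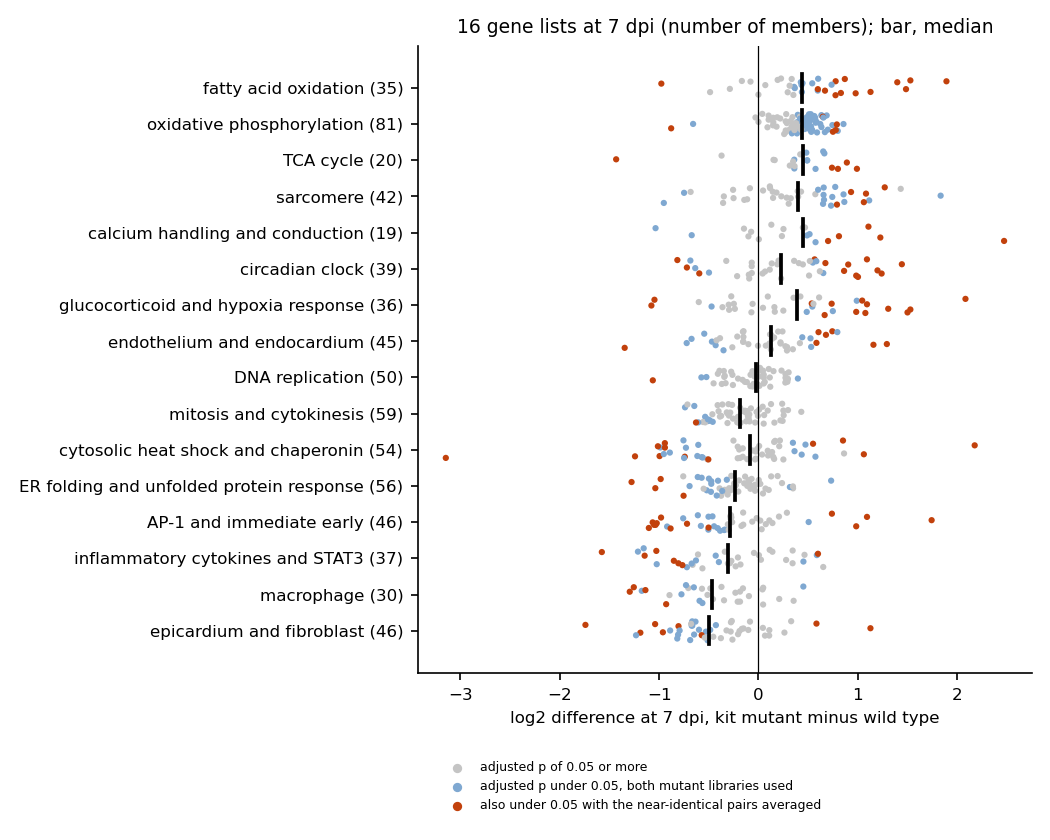
Log2 difference at 7 dpi (kit mutant minus wild type, horizontal axis) of every member of 16 gene lists, with the number of members after each name and a black bar at the list's median. Points are coloured by the test as the legend gives, and medians run from 0.45 for the TCA cycle and for calcium handling and conduction to -0.50 for epicardium and fibroblast.

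Clock genes were called in both directions, the lower ones near the share of all genes. Of 39 circadian genes 13 were higher (33.3%) and 6 lower (15.4%), against 13.7% and 14.5% of all genes. The median was 0.23, and 10 were higher and 3 lower in both fits. The light-responsive cryptochrome gene cry5 stood at 6.74 and 6.41 scaled CPM in wild type and 18.6 and 20.7 in mutants (log2 difference 1.44 ± 0.15, adjusted p = 1.6e-05). cry1b, a repressor of the clock, stood at 26.6 and 28.7 against 66.01 and 67.3 (2.41-fold, adjusted p = 4e-05), and per1a, a period gene, at 22.5 and 16.4 against 40.3 and 37.6 (2.01-fold). The bZIP repressor gene nfil3-6 was lower, 427 and 411 against 233 and 242 (log2 difference -0.82 ± 0.12, adjusted p = 0.00014), as was the nuclear receptor gene nr1d1, REV-ERB alpha (258 and 238 against 159 and 169). The groups did not overlap for these genes. The labels give no hour of collection, and the part of the time of day was not tested.

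Of 36 genes of the responses to glucocorticoids and low oxygen 15 were higher and 3 lower (median 0.39), and 11 and 2 in both fits. zbtb16a, a zinc finger factor known as a glucocorticoid target in mammals, stood at 16.03 and 25.2 scaled CPM in wild type and 84.9 and 92.4 in mutants (4.3-fold, adjusted p = 7.5e-05). klf9, another glucocorticoid-induced factor, stood at 28.7 and 33.9 against 67.6 and 67.8 (2.16-fold). hif1al, a hypoxia-inducible factor gene, stood at 88.9 and 118 against 292 and 290.4 (2.82-fold, adjusted p = 4e-05), and epas1b, which encodes a HIF2 alpha, at 179 and 192 against 386 and 382. No wild-type library reached a mutant library in these 4 genes. Of the other glucocorticoid genes of the list, per1a and pdk4 were higher in both fits, and fkbp5 and hsd11b2 with both libraries only. The genes tsc22d3, sgk1 and mt2 and the receptor genes nr3c1 and nr3c2 did not pass. Among the hypoxia targets of the list, ankrd37 and higd1a were higher in both fits, and p4ha1b with both libraries only. Those that did not pass included ldha, slc2a1a, egln3 and ndrg1a, and vegfaa, a VEGF ligand gene, was lower with both libraries only. Lower in both fits were the cytokine-induced inhibitor gene cish (72.8 and 62.3 against 30.8 and 32.02) and the collagen prolyl hydroxylase gene p4ha2 (log2 difference -1.05 ± 0.12). The list shares klf9, per1a and sgk1 with the immediate early list, per1a also with the circadian one, and pdk4 with that of fatty acid oxidation. It shares ldha, slc2a1a, pfkfb3 and pfkfb4b with the glycolysis list and vegfaa with that of growth factors.

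Many fibroblast and matrix genes were lower in mutants. Of 46 epicardium and fibroblast genes 23 were lower and 2 higher, with a median log2 difference of -0.50 against 14.5% of all genes lower, and 6 were lower and 2 higher in both fits. col11a1a, a fibrillar collagen chain, stood at 42.6 and 44.9 scaled CPM in wild type and 11.9 and 12.9 in mutants (log2 difference -1.74 ± 0.24, adjusted p = 0.00011). fn1a, fibronectin, stood at 1654 and 1419 against 751 and 738 (2.06-fold lower, adjusted p = 0.00011). postnb, periostin, a marker of activated fibroblasts, was 1.95-fold lower in mutants (adjusted p = 0.00025). mmp14a, a membrane-bound matrix protease, stood at 195 and 169.8 against 99.6 and 108 (1.76-fold lower). All mutant values of these genes lay below all wild-type values. In bulk libraries fewer cells of a type and less RNA per cell cannot be told apart.

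The transcription factor genes tcf21 and wt1b, markers of the epicardium, passed only with both libraries (log2 difference -0.89 ± 0.20 and -0.51 ± 0.17, adjusted p = 0.055 and 0.21 with the pairs averaged). The higher exceptions of the fibroblast list in both fits were cxcl12b, a chemokine gene (270.2 and 233 against 543 and 557), and podxl, podocalyxin (906 and 932 against 1391 and 1364). The summed level of the list was 42243 and 36282 scaled CPM in wild type and 31730 and 31540 in mutants. 15, 22, 15 and 15 members were lower without wild-type replicates 1 and 2 and mutant replicates 1 and 2, in that order. Collagens as a class were less uniform, with 5 of 17 lower and 2 higher, and 1 each way in both fits. The 5 lower ones are also on the fibroblast list. The 17 include col4a3bpa, named for a protein that binds a collagen and not for a collagen chain, which did not pass. col15a1b, a basement membrane collagen, was higher (10.3 and 8.91 against 17.01 and 17.2). Of 14 genes of matrix proteases and their inhibitors 6 were lower and 1 higher, and 2 were lower in both fits, with adam8a, a protease of leukocytes and other cells, at 109.9 and 155 against 60.3 and 62.2. The lower genes mmp2, mmp14a and mmp14b are on the fibroblast list too.

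Some genes of macrophages and of inflammatory signalling were lower as well. Of 30 macrophage genes 10 were lower and 1 higher (median -0.47), and 4 of the lower ones passed in both fits. The median was -0.19 without wild-type replicate 1 and -0.76 without wild-type replicate 2. irf8, a transcription factor that macrophages need, stood at 118 and 132 scaled CPM in wild type and 55.7 and 56.2 in mutants (2.23-fold lower, adjusted p = 9.8e-05). apoeb, an apolipoprotein E gene, stood at 42.6 and 36.6 against 16.9 and 15.1, and ms4a17a.11, a membrane protein gene, at 104 and 85.3 against 48.2 and 49.9. Among the defining markers mpeg1.1, a perforin-like gene, was lower with both libraries only (61.7 and 44.8 against 30.3 and 30.3, adjusted p = 0.018, and 0.15 with the pairs averaged), while c1qa and csf1ra did not pass (adjusted p = 0.076 and 0.55). The summed macrophage level was 3988 and 3128 in wild type and 2591 and 2601 in mutants, and 5, 11, 6 and 5 members were lower without wild-type replicates 1 and 2 and mutant replicates 1 and 2, in that order.

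Of 37 genes of inflammatory cytokines and STAT3 signalling 14 were lower and 3 higher (median -0.31), and 6 and 1 in both fits. lepa, a leptin gene, stood at 1.62 and 1.41 scaled CPM in wild type and 0.156 and 0.115 in mutants (log2 difference -1.15 ± 0.18, adjusted p = 0.00033). The mutant values of lepa were no higher than 3 reads, which is 0.156 and 0.172 scaled CPM in these libraries. It entered the comparison through its wild-type libraries only. lepb, the other leptin gene and a known injury-induced gene of the zebrafish heart, was named after its values were seen, at 13.7 and 15.5 against 3.73 and 4.76. crlf1a, a cytokine receptor-like factor, stood at 12.5 and 19.4 against 7.31 and 6.94. The mutant libraries were below the wild-type libraries for all 3. cebpd, an acute phase transcription factor, and cxcl18b, a neutrophil-attracting chemokine, were 1.76- and 1.71-fold lower, while stat3 itself was higher (107 and 96.3 against 158 and 149.6, adjusted p = 0.0004). The cytokine genes il1b, tnfa, tnfb and il6 did not pass, and csf1a was higher with both libraries only. 9, 10, 7 and 9 members were lower without wild-type replicates 1 and 2 and mutant replicates 1 and 2, in that order. Of 32 interferon and antigen presentation genes 9 were lower (28.1%) and 1 higher (3.1%) with both libraries, and 2 were lower in both fits. 5, 10, 2 and 3 of them were lower without wild-type replicates 1 and 2 and mutant replicates 1 and 2. Of 41 lysosome genes 14 were lower and 5 higher, and 4 and 1 in both fits, with 8, 11, 8 and 7 lower when the same libraries were left out. ctsba and tpp1, lysosomal proteases, had log2 differences of -0.84 ± 0.15 and -0.87 ± 0.18.

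Immediate early genes are the first to respond to growth factors and stress. Of 46 such genes 21 were lower and 5 higher (median -0.29), and 9 and 4 in both fits. The other 20, with fosab, fosb, junba and junbb among them, did not pass. ier2 stood at 219 and 303 scaled CPM in wild type and 124 and 123 in mutants (2.11-fold lower, adjusted p = 4.4e-05). dusp5, a phosphatase that switches off ERK and is itself an ERK target, stood at 149 and 156 against 70.9 and 70.28 (2.17-fold lower, adjusted p = 2.2e-05), and egr2a, a zinc finger factor, at 42.8 and 48.5 against 21.4 and 23.9. The groups were apart for these genes and for dusp2 (2.13-fold lower). The members higher in both fits were klf11a (10.2 and 13.8 against 42.8 and 41.4), klf11b, klf9 and per1a. 16, 13, 13 and 15 members were lower without wild-type replicates 1 and 2 and mutant replicates 1 and 2, in that order.

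Chaperone genes were called in both directions, the higher ones near the share of all genes. Of 54 heat shock and chaperonin genes 18 were lower (33.3%) and 9 higher (16.7%), against 14.5% and 13.7% of all genes. The median was -0.09, and 8 were lower and 4 higher in both fits. Among those lower in both fits, chordc1a, an Hsp90 co-chaperone, stood at 21.6 and 29.1 scaled CPM in wild type and 12.9 and 12.3 in mutants, and fkbp4, an immunophilin of the same complex, at 139 and 148 against 84.99 and 85.8. serpinh1b, the collagen chaperone HSP47 of the endoplasmic reticulum, which the list also holds, stood at 773 and 949 against 455 and 436 (1.93-fold lower, adjusted p = 5.7e-05). Higher in both fits were the small heat shock genes hspb6, 492 and 457 against 2140 and 2154 (4.53-fold, adjusted p = 2e-05), and hspb7, and the heat shock factor gene hsf1, 46.6 and 42.97 against 84.9 and 78.3. Each of these genes kept the genotypes apart. Another small heat shock gene, hspb8, was lower with both libraries only, and hspb1 did not pass. hsp70.1, at 19090 and 25053 against 11150 and 10907, was lower with both libraries (adjusted p = 0.0035) but not with the pairs averaged (adjusted p = 0.083), and it has near-identical copies. The summed level of the list was 84078 and 103910 scaled CPM in wild type and 66650 and 65746 in mutants. 17, 13, 12 and 14 members were lower without wild-type replicates 1 and 2 and mutant replicates 1 and 2, in that order.

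In the endoplasmic reticulum 16 of 56 folding and unfolded protein response genes were lower and 2 higher (median -0.24, and -0.12 without wild-type replicate 1), and 4 of the lower ones passed in both fits. hspa5, the lumenal chaperone BiP, stood at 1730.2 and 1640.5 scaled CPM in wild type and 869.8 and 833 in mutants (1.98-fold lower, adjusted p = 9.9e-05). hsp90b1, or GRP94, stood at 614 and 454 against 261 and 252, and the disulfide isomerase gene pdia4 at 122 and 78.05 against 38.8 and 40.7. In each case both mutant libraries were below both wild-type libraries. 8, 15, 7 and 6 members were lower without wild-type replicates 1 and 2 and mutant replicates 1 and 2, in that order.

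Growth factors and receptors of heart regeneration did not move as one. Of 65 such genes 16 were lower (24.6%) and 10 higher (15.4%), against 14.5% and 13.7% of all genes. The median was -0.19, and 6 were lower and 2 higher in both fits. The midkine genes, which encode secreted heparin-binding growth factors, were lower: mdka stood at 1968 and 1903 scaled CPM in wild type and 846 and 851 in mutants (2.28-fold lower, adjusted p = 2.5e-05), and mdkb at 25.2 and 18.02 against 5.13 and 4.19 (4.63-fold lower). inhbaa, an activin subunit with a role in zebrafish cardiomyocyte proliferation, stood at 15.6 and 17.3 against 6.85 and 6.48 (2.47-fold lower, adjusted p = 0.00032). The mutant libraries were the lower ones throughout. her6, a hairy-related repressor, was 1.61-fold lower. The receptor genes notch1b (324 and 369 against 588 and 571) and insra, an insulin receptor (91.5 and 119 against 178 and 178), were higher. 14, 12, 10 and 9 members were lower without wild-type replicates 1 and 2 and mutant replicates 1 and 2, in that order.

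Endothelial genes were split, with 10 of 45 higher (22.2%) and 7 lower (15.6%), against 13.7% and 14.5% of all genes. The median was 0.13, and 0.06 without wild-type replicate 1, and 6 were higher and 1 lower in both fits. kdr, a VEGF receptor gene, stood at 152 and 151 scaled CPM in wild type and 381 and 366 in mutants (2.46-fold, adjusted p = 3.9e-06). cdh5, the cadherin of endothelial junctions, stood at 191 and 214 against 322 and 327 (1.60-fold, adjusted p = 4.2e-05), and stab2, a scavenger receptor, at 9.61 and 10.8 against 23.8 and 24.2. All 3 had both mutant libraries above both wild-type libraries. cxcr4a, a chemokine receptor gene, was lower (13.2 and 31.5 against 7.10 and 7.80, log2 difference -1.35 ± 0.27). kdrl, a defining marker, did not pass (adjusted p = 0.52). The summed level was 7233 and 8179.8 in wild type and 9595 and 9513 in mutants, and 6, 10, 6 and 9 members were higher and 5, 4, 3 and 3 lower without wild-type replicates 1 and 2 and mutant replicates 1 and 2, in that order.

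Few cell cycle genes passed the test at 7 dpi. Of 50 DNA replication genes 3 were lower and 1 higher (median -0.02, with a positive sign in 2 of 15 other settings), and of 59 genes of mitosis and cytokinesis 9 were lower (median -0.18), against 14.5% of all genes lower. In both fits only slbp, the histone mRNA binding protein (15.2 and 20.1 scaled CPM against 7.10 and 8.66, log2 difference -1.06 ± 0.20), and tubb2b, a beta tubulin (412 and 408 against 267 and 263), were lower. Both had their mutant libraries below the wild-type ones. The mitotic genes cdk1, ccnb1 and top2a were lower with both libraries (log2 difference -0.54 ± 0.19, -0.51 ± 0.17 and -0.46 ± 0.14), and their adjusted p with the pairs averaged was 0.23, 0.18 and 0.16. These were named after their values were seen. 2, 5, 3 and 3 mitotic genes were lower without wild-type replicates 1 and 2 and mutant replicates 1 and 2, in that order. The inhibitor gene cdkn1a, p21, stood at 125 and 155 against 69.1 and 72.2 (log2 difference -0.97 ± 0.16, adjusted p = 0.00034), one of 7 lower and 1 higher among 32 genes of p53, apoptosis and cell cycle inhibition, of which 3 were lower in both fits.

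Ribosomal and proteasome genes of the cytosol were seldom called. Of 81 cytosolic ribosomal protein genes 2 were lower (median -0.10), of 42 proteasome genes 1 was higher and 3 lower (median 0.00, of the other sign in 6 of 15 other settings), and of 68 mitochondrial ribosomal protein genes 11 were higher (16.2%, against 13.7% of all genes) and 2 lower (median 0.13), and 2 of the higher ones passed in both fits. Translation factors were 14 of 70 higher (20%) and 3 lower, and 4 of the higher ones passed in both fits. Among them eef2k, the kinase that slows elongation, stood at 60.7 and 81.1 scaled CPM in wild type and 151 and 145 in mutants, and eif4ebp3l, a 4E-binding protein gene, at 72.1 and 103 against 166 and 169. Both were higher with the groups apart (adjusted p = 7e-05 and 0.0015). In sterol and lipid synthesis 10 of 38 were higher and 4 lower, and 4 and 2 in both fits, with the regulators srebf1 and srebf2 higher by 0.89 and 0.69 on the log2 scale.

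Other cell types that the preparations could hold were followed by their marker lists, and their part in the results above was not tested. For comparison, 13.7% of all genes were higher and 14.5% lower, and 3.76% and 4.37% with the pairs averaged. Of 16 erythrocyte genes 3 were higher, and the summed level was 4511 and 5952 scaled CPM in wild type and 6475 and 6581 in mutants. Of 19 neutrophil genes 2 were higher and 1 lower, with sums of 769.6 and 652 against 867 and 877, and the defining gene npsn, at 0.0404 to 0.172 scaled CPM, was no member. Of 10 leukocyte genes 1 was lower (562 and 433 against 365 and 362 summed), and of 6 lymphocyte genes 3 (89.7 and 66.4 against 41.2 and 41.8 summed). These sums overlapped between the genotypes for none of the 4 lists. Of 14 smooth muscle genes 6 were higher and 3 lower with both libraries, and sums were 3777 and 3892 against 4493 and 4518. Thrombocyte and coagulation genes were 3 of 15 higher and 3 lower (3274 and 2549 against 2575 and 2527 summed), where f3b, tissue factor, stood at 325 and 355 against 182 and 177. Of 7 pigment cell genes 1 was higher and 2 lower (133 and 85.04 against 137 and 127 summed), and of 6 Schwann cell and neuron genes 1 was lower (51.00 and 43.2 against 29.7 and 32.4 summed). It was sox10, a neural crest factor on both lists, at 6.14 and 7.25 against 2.39 and 3.50. Of 13 genes of pancreas, liver, skin and skeletal muscle 2 were higher and 2 lower (5208 and 4765 against 6078 and 6113 summed). Most of that sum was ckma, at 2615 and 3074 against 4620 and 4661, which ranked 28 among all genes. Another skeletal muscle gene, mylpfa, was at or below 0.323. Most of the pigment cell sum was csf1ra, also on the macrophage list, at 82.5 and 46.7 against 84.1 and 75.4. Neither sum is therefore a measure of the tissues or cells it is named for. In both fits 1 erythrocyte gene and 1 of these 13 were higher, and 1 lymphocyte gene, 2 thrombocyte and coagulation genes, sox10 and 1 of the 13 were lower. No neutrophil, leukocyte or smooth muscle gene passed with the pairs averaged. The sums hold more genes than the counts: 52 for pancreas, liver, skin and skeletal muscle and 17 for pigment cells. For Schwann cells and neurons they hold 23, and for lymphocytes 13.

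How far the genotype difference of 7 dpi differed from that of other times was tested within the same fit, between comparisons that share no library. Against untouched hearts the difference was more positive for 975 of the 10360 genes (9.41%) and more negative for 1014 (9.79%), 408 in all with the pairs averaged. Against 5 dpi these numbers were 1394 (13.5%) and 1332 (12.9%), 993 in all with the pairs averaged, and against 14 dpi 905 (8.74%) and 836 (8.07%), 143 in all. In what follows, calls at the other times are those with both libraries, without averaging. Each gene shares its estimate of spread over all times in this fit, so shares of all genes are no like baseline for the 843. Of the 843 genes in both fits at 7 dpi, 542 were called in the same direction in untouched hearts and 43 in the opposite one, where 2009 genes were higher and 2223 lower in all (19.4% and 21.5%). At 5 dpi 370 were called in the same direction and 91 in the opposite one (2067 higher and 2047 lower in all, 20% and 19.8%), and at 14 dpi 422 and 24 (1703 higher and 1551 lower in all, 16.4% and 15%). All 3 of these times shared the direction with 7 dpi for 129 genes. At none of the other 4 times was a call made for 34 genes, with 2 dpi included, where 2892 genes were higher (27.9%) and 3223 lower (31.1%).

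**Figure D4:**
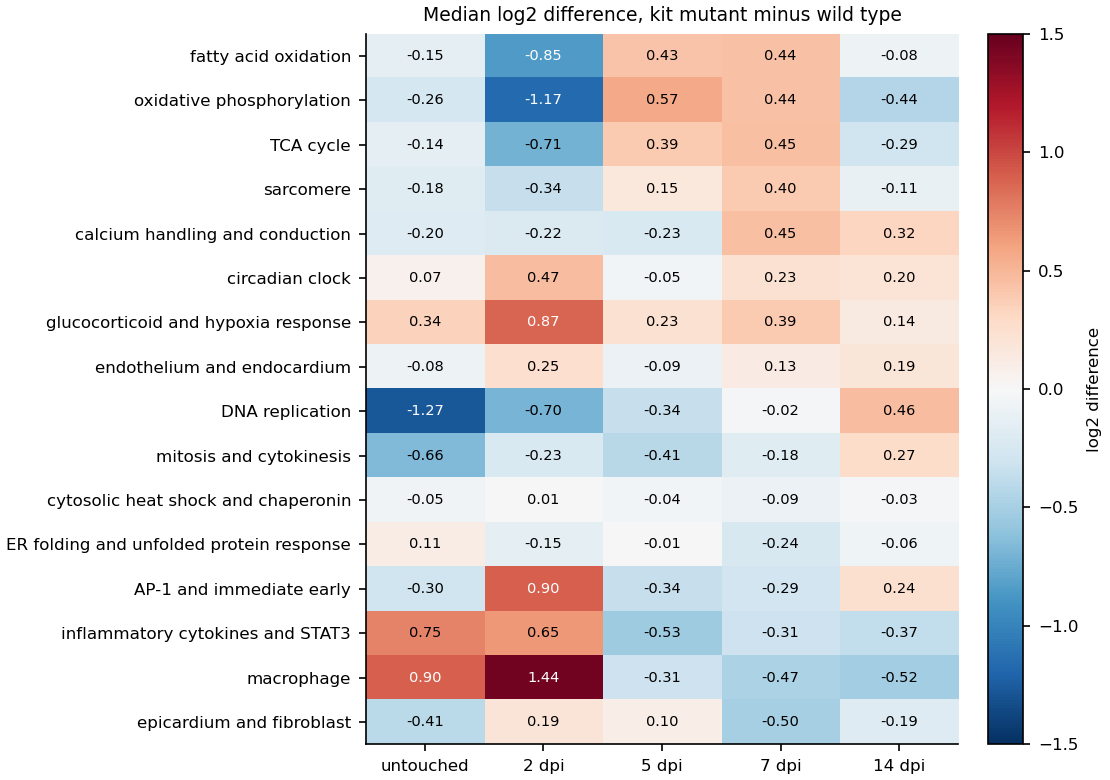
Median log2 difference between kit mutant and wild type (colour and number) of 16 gene lists (vertical axis) in untouched hearts and at 2, 5, 7 and 14 dpi (horizontal axis). At 7 dpi the mitochondrial, sarcomere and calcium lists are between 0.40 and 0.45, while in untouched hearts the same lists are between -0.26 and -0.14.

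By gene list, the mitochondrial difference of 7 dpi was near that of 5 dpi and of the other sign in untouched hearts and at 2 and 14 dpi. The median of oxidative phosphorylation was -0.26 in untouched hearts, -1.17 at 2 dpi (73 of 81 lower), 0.57 at 5 dpi, 0.44 at 7 dpi and -0.44 at 14 dpi. The difference at 7 dpi was more positive than in untouched hearts for 51 of the 81 genes, and than at 14 dpi for 72, while it was more negative than at 5 dpi for 2. With the pairs averaged these counts were 2, 4 and 1. Calcium handling and conduction genes had medians of -0.20, -0.22, -0.23, 0.45 and 0.32 at the same times, and 6 of 19 were more positive at 7 than at 5 dpi, 5 of them also with the pairs averaged. The fibroblast list had medians of -0.41, 0.19, 0.10, -0.50 and -0.19, and 19 of 46 genes were more negative at 7 than at 5 dpi, 11 with the pairs averaged. The macrophage list, at 0.90 in untouched hearts, 1.44 at 2 dpi and -0.47 at 7 dpi, was more negative at 7 dpi than in untouched hearts for 22 of 30 genes, 12 with the pairs averaged. The DNA replication list had a median of -1.27 in untouched hearts, -0.70 at 2 dpi and -0.02 at 7 dpi, and 38 of its 50 genes were more positive at 7 dpi than in untouched hearts, 24 with the pairs averaged. For cytosolic ribosomal proteins 74 of 81 were more negative than at 5 dpi and 78 more positive than at 14 dpi, 19 and 2 with the pairs averaged. Their median was -0.95 at 2 dpi. The difference of 7 dpi from 2 dpi was not tested.

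Seen from untouched hearts of the same genotype, both genotypes changed by 7 dpi, and these values rest on the same 7 dpi libraries as those above. In wild type 1871 genes were higher than in untouched hearts (18.1%) and 1832 lower (17.7%), and in mutants 956 (9.23%) and 603 (5.82%). In both fits these were 1537 and 1425 in wild type and 232 and 54 in mutants, where both mutant groups are then single columns. Oxidative phosphorylation genes were 2 of 81 higher and 77 lower in wild type (median -1.0), and 1 higher and 4 lower in mutants (median -0.31), and in both fits 2 and 76 in wild type and none in mutants. Of 42 sarcomere genes 32 were lower in wild type (median -0.72), 26 in both fits, and 5 in mutants (median -0.18), none in both fits. Fibroblast genes were 39 of 46 higher in wild type (median 1.27) and 33 higher and 2 lower in mutants (median 1.13), and 38 and 23 were higher in both fits. Macrophage genes were 29 of 30 higher in wild type (median 2.06), and 9 higher and 4 lower in mutants (median 0.05), from an untouched level that differed between the genotypes. In both fits 28 were higher in wild type and 1 in mutants. DNA replication genes were 36 of 50 lower in wild type (median -0.64), but 26 higher and 1 lower in mutants (median 0.54). In both fits 33 were lower in wild type and 3 higher in mutants. Mitosis and cytokinesis genes were 18 of 59 higher and 5 lower in wild type (median 0.35). In mutants 39 were higher and 1 lower (median 0.73). In both fits 14 were higher and 3 lower in wild type, and 13 were higher in mutants. Untouched levels of both cell cycle lists differed between the genotypes too. Their medians there were -1.27 (45 of 50 lower in mutants) and -0.66 (37 of 59 lower, 2 higher).

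A difference at 7 dpi that differed from those of untouched hearts, 5 dpi and 14 dpi was found for 70 of the 843 genes. With the pairs averaged it was found for 4, has1, lrrc17, hps5 and zgc:153118, which were all lower in mutants at 7 dpi. The 843 genes were chosen by their 7 dpi difference, and each of these tests uses the same 7 dpi libraries. The choice thus favours such departures, and the share over all genes is not given here, so these counts have no baseline. has1 in wild type went from 2.11 ± 0.147 scaled CPM in untouched hearts to 86.6 ± 7.44 at 2 dpi, 26.2 ± 2.73 at 5 dpi, 41.9 ± 0.172 at 7 dpi and 9.65 ± 0.474 at 14 dpi (SD, n = 2 libraries). In mutants it went through 2.42 ± 0.370, 115 ± 1.82, 28.5 ± 5.72, 10.1 ± 1.51 and 7.70 ± 3.46. The genotypes were thus near each other at 5 dpi and apart at 7 dpi. lrrc17, which encodes a leucine-rich repeat protein, stood at 58.1 and 49.4 in wild type and 17.3 and 19.05 in mutants at 7 dpi. hps5, a subunit of a complex that builds lysosome-related organelles, stood at 18.5 and 19.05 against 10.99 and 11.8. For zgc:153118 the values were 12.8 and 8.08 against 0.259 and 1.03.

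**Figure D5:**
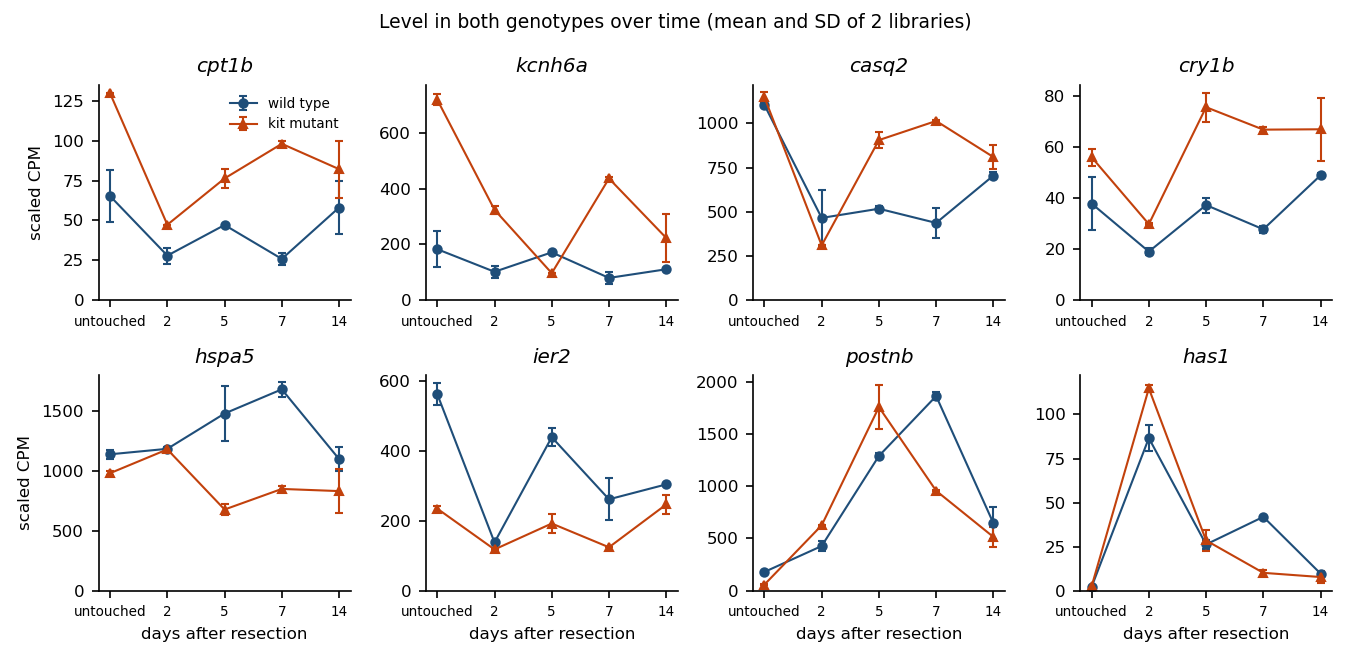
Scaled CPM (mean and SD of 2 libraries, vertical axes from 0) of 8 genes in wild type (circles) and kit mutants (triangles), untouched and at 2, 5, 7 and 14 days after resection (horizontal axes). At 7 dpi cpt1b, kcnh6a, casq2 and cry1b are higher and hspa5, ier2, postnb and has1 lower in mutants, and for kcnh6a the mutant mean is below the wild-type mean at 5 dpi only.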

How the data were processed

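RNA of isolated adult cardiomyocytes, from 8 pooled ventricles per library, was sequenced as poly(A)-selected mRNA libraries, 2 in each of 10 groups of genotype and time. The deposited matrix holds CPM per gene symbol, and FastQC, featureCounts and danRer10 are named without versions per the submitters' processing notes. Aligner, annotation and strand setting: not given in the sources used here. Hence reads of overlapping or antisense genes cannot be told apart. The CPM as deposited add up to 1000000 per library over 14781 genes, once 3 lines that name no gene are set aside. 11 symbols look like dates and were used unchanged. Values were whole multiples of 1 read (100% within 0.1 read), which gave back 14604835 to 31689067 reads per library. PCR reads are not independent molecules, so floors cover counting error only.

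Library factors (0.881 to 1.18) were the median ratios over the 11000 genes detected in every library, and scaled CPM are CPM over that factor. limma-trend (limma 3.58.1 in R 4.3.3) was run on log2(scaled CPM + 1) with a mean for each of the 10 groups, leaving 10 residual degrees of freedom. Fold changes on this scale understate those of low genes, so the folds printed are ratios of group means of scaled CPM. The 10914 genes at or above CPM 1 in 2 or more of the 20 libraries entered the two-sided test and the Benjamini-Hochberg adjustment. A pair of libraries counted as near-identical where the chi-square of its reads averaged under 10 (genes of 20 reads or more), and was averaged into 1 column in an alternative that takes the lone column to vary like the other groups. The same holds where 1 library of a pair was left out. No permutation of 2 against 2 libraries could pass the threshold, and p-values measure the spread between these libraries, which may be technical. On the recovered reads edgeR 4.0.16 (quasi-likelihood test with TMM) called 1440 genes higher and 1500 lower, and DESeq2 1.42.0 called 1383 and 1449. The fit was tested on simulated data.

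The genes, the 44 gene lists and the tests were chosen with earlier results of these data known. Some lists share members, such as mdka, podxl, notch1b and hspb7, so their counts are not independent. Named genes are the 4 genes of the receptors and their ligands, 15 genes in each direction with the largest log2 difference (adjusted p under 0.05 in both fits, group mean of the higher genotype at least 5 scaled CPM, libraries apart, no clone-like symbol), up to 4 members per list and direction by adjusted p among those that passed in both fits, and the markers that define cell types. Other genes it names were chosen after their values were seen. Replicate numbers did not pair the libraries of 7 dpi: same-numbered libraries correlated at 0.020 in their deviations from the group means. No sequences or coordinates are given, as no genome of the build was used here.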

Additional observations from a re-analysis of the deposited data

Results flagged for a closer look

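For some of the genes named above the genotype difference at 7 dpi differed from that at another time by a test of the difference itself (limma, adjusted p under 0.05 with and without averaging the nearly identical pairs). Values are the log2 difference at 7 dpi minus that at the other time, for the 30 genes with the largest differences and for the 4 genes whose difference at 7 dpi stood apart from untouched hearts, 5 dpi and 14 dpi. All were chosen by their 7 dpi values, which the test of the difference uses again. The choice thus favours a departure of 7 dpi from the other times, and the values are a description only. Against 5 dpi the value was 3.04 for erich3, 3.30 for kcnh6a, 2.27 for zbtb16a, 1.62 for mapk4 and 1.21 for cpt1b. In kcnh6a the mutant level was above wild type at 7 dpi (log2 difference 2.47) and below it at 5 dpi (-0.82). Among genes lower in mutants the value against 5 dpi was -2.86 for f13a1a.1, -1.76 for adh8a, -1.70 for ogn, -1.71 for tfa and -1.36 for grhpra. Against untouched hearts it was 2.12 for abcc8 and -1.78 for lin7b, and against 14 dpi it was 1.96 for mapk4 and -1.42 for wfdc1.

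has1 had values of -2.09, -2.06 and -1.61 against untouched hearts, 5 dpi and 14 dpi. hps5 had -1.01, -0.85 and -0.93 against the same times, and zgc:153118 had -2.83, -2.15 and -2.44. lrrc17 had 1.47, -1.38 and -1.05: it was lower in mutants by 1.51 on the log2 scale at 7 dpi and by more in untouched hearts (-2.98). Adjusted p with the pairs averaged over all these values ran from 0.0029 for kcnh6a against 5 dpi to 0.047 for has1 against 14 dpi.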

How the results depend on the processing

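The 152 genes named for a largest difference or from a list, chosen to pass with the pairs averaged, kept direction and call in each of the 15 settings tried (3 were not tested at a filter of CPM 5), while kitlga and the markers tcf21, wt1b and mpeg1.1 lost theirs with the pairs averaged. Counts of genes moved most with the nearly identical pairs averaged, to 390 higher and 453 lower, and to 408, 993 and 143 genes whose difference departed from that of untouched hearts, 5 dpi and 14 dpi. Leaving out 1 library gave 721 to 1043 higher and 811 to 1088 lower genes, and 1269 to 1789, 1747 to 2284 and 922 to 1405 departing from those times, lowest without a mutant library. CPM as deposited gave 987 higher and 1795 lower, 35.5% higher of those called against 48.6%. With the replicate number as a block 1345 were higher and 1440 lower, the block moved no count by over 1.5 times, and the numbers share no source in the labels. The medians of DNA replication and of translation factors changed sign in 2 settings each, that of the proteasome in 6. Those of cytoskeleton remodelling, mitochondrial carriers, pigment cells, ribosome biogenesis, and thrombocytes and coagulation did so in 1 setting each. The cause of these changes was not tested. Other settings (quantile normalization, pseudocount 0.25, no filter, CPM 5, members only, edgeR, DESeq2, only the groups compared) kept every count within 1.5 times. Depth limits the receptor genes: kita had 6 to 16 reads per library.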

Other observations

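Cytoskeleton genes were called in both directions. Of 58 genes of actin and microtubule remodelling 8 were higher (13.8%) and 13 lower (22.4%) in mutants at 7 dpi. Over all genes 13.7% were higher and 14.5% lower. In both fits 3 of the 58 were higher and 6 lower, against 3.76% and 4.37% of all genes with the pairs averaged. The cofilin genes, which sever actin filaments, moved in opposite directions: cfl1 stood at 582 and 494 scaled CPM in wild type and 355 and 349 in mutants (log2 difference -0.61 ± 0.11), and cfl2, the muscle form, at 113 and 112 against 200.3 and 199.7 (log2 difference 0.82 ± 0.16). fscn1a, the actin bundling protein fascin, was lower (-0.65 ± 0.11), and msna, moesin, was higher (0.62 ± 0.12). Of 44 antioxidant and glutathione genes 6 were higher (13.6%) and 10 lower (22.7%), and 1 in each direction in both fits. gss, glutathione synthetase, stood at 3.67 and 3.53 in wild type and 7.26 and 7.34 in mutants.

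In sterol and lipid synthesis ebp, a sterol isomerase, stood at 1.05 and 0.513 scaled CPM in wild type and 3.99 and 3.27 in mutants, and elovl6, a fatty acid elongase, at 5.37 and 6.03 against 2.07 and 2.58. dgat1a, which makes triglycerides, was 3.60-fold higher in mutants.

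Across the 10360 genes the genotype difference of 7 dpi had a Pearson correlation of 0.445 with that of 14 dpi, 0.402 with that of untouched hearts, 0.311 with that of 5 dpi and 0.251 with that of 2 dpi. Spearman's rho was 0.376, 0.418, 0.233 and 0.237 in the same order, so the times rank differently by the 2 measures. This is a description across genes, which are not independent replicates, and the comparisons share no library.

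In the gene order of GRCz12tu, where 10266 of the 10360 genes have a position, 34 of the 100 genes nearest to kita and 42 of the 100 nearest to kitb were called at 7 dpi, against 28.2% of all. In both fits 13 and 18 of them were called, against 8.14% of all. These counts were made after other results were seen, and no test was run.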
